A study of Homo sapiens with 16 samples.

Results

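The results below concern 50 genes of mitosis, the spindle and the kinetochore in VCaP cells, followed across androgen and antiandrogen treatment. The genes were taken as a fixed list of names and matched to the deposited gene table, and all 50 were found among the 58302 genes listed. All 50 also passed the filter on low counts that left 22553 genes for testing. They were sorted by role into the spindle checkpoint (5 genes), the anaphase-promoting complex and separase (4), CDK1 with its cyclins and CDC25 phosphatases (6), the Polo and Aurora kinases with the chromosomal passenger complex (6), kinesins (6), centromere proteins (6), the NDC80 complex (4), spindle assembly and microtubule proteins (8), cytokinesis (2), chromosome structure and proliferation (2) and 1 transcription factor.

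As background, entry into mitosis is driven by CDK1 bound to cyclin B, which the CDC25 phosphatases switch on. Kinetochores, built on centromeres marked by the histone CENPA, attach chromosomes to microtubules through the NDC80 complex, and unattached kinetochores keep the checkpoint proteins BUB1B and MAD2L1 bound to CDC20. Once all chromosomes are attached, CDC20 activates the anaphase-promoting complex, which destroys cyclin B and securin (PTTG1) and so frees separase (ESPL1) to part the sister chromatids. Most of these transcripts accumulate late in the cell cycle, so their level in a culture follows how many cells are dividing. In bulk RNA, fewer dividing cells and less RNA per cell cannot be told apart.

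VCaP is a prostate cancer cell line that expresses the androgen receptor and carries the TMPRSS2-ERG fusion. Vc cells had been kept for 4 months with ethanol, the solvent, and Ver cells for 4 months with 1 µM enzalutamide, an androgen receptor antagonist. Before treatment all cells went without steroids for 48 h or more, in charcoal-stripped serum and a medium lacking phenol red. For the last 24 h they received no addition (control), 1 nM dihydrotestosterone (DHT, the main active androgen of the prostate), 1 µM enzalutamide, or DHT with enzalutamide. These are 8 groups of 2 libraries, 16 in all, made from polyA RNA. Vc and Ver are 1 cell population each, and nothing in the labels says that the 2 libraries of a group came from separate cultures, so p-values measure the spread between these libraries. All Vc libraries were sequenced on lane 8 and all Ver libraries on lane 2, so that lane and line cannot be told apart.

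The libraries held 8155244 to 13273523 counts in genes. The share of reads that fell in no gene ran from 45.0 to 50.6% and was lower with DHT in both lines (47.1 and 46.9% in the 2 Vc DHT libraries against 50.1 and 50.6% in Vc control, and 45.3 and 45.6% in Ver DHT against 49.0 and 48.7% in Ver control). The part of this share in the results was not tested. Prostate luminal markers (KLK3, KLK2, TMPRSS2, ERG, HOXB13, KRT8 and KRT18) were detected in all libraries, with a summed level of 3170 to 9795 CPM (read counts scaled to a common library total), against at most 3.35 CPM for 3 endothelial and 1.61 CPM for 4 immune markers. Of these luminal markers, 7 of 7 rose with DHT in Vc and 6 of 7 in Ver. Of 5 fibroblast markers, COL1A2, COL3A1 and DCN stayed at or under 0.460 CPM and COL1A1 ran from 0.935 to 2.54 CPM, while LUM ran from 0.328 to 81.1 CPM and was lower with DHT; its part in the results was not tested. Single genes are given below as CPM, scaled by TMM, in the 2 libraries of a group, and changes as log2 fold changes with their standard error (SE). Every adjusted p is from edgeR's quasi-likelihood test with Benjamini-Hochberg adjustment over all 22553 genes unless another tool is named, and a gene is said to rise or fall where it is under 0.05.

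Per kilobase of exon, the highest levels over all 16 libraries belonged to the cyclin CCNB1 (11.7 CPM per kb), topoisomerase TOP2A (10.8), the ubiquitin-conjugating enzyme UBE2C (9.70), the spindle assembly factor TPX2 (9.70) and the checkpoint protein BUB3 (8.95). The lowest were the kinesin KIF18A (0.945), the hyaluronan receptor and spindle protein HMMR (0.902) and the kinetochore motor CENPE (0.782). SPC25 was the gene with the fewest reads, 4 to 52 counts in a library, and BUB3 had 587 to 960.

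The summed level of the 50 genes gave the order of the groups. It was highest in Vc control, with 1165 and 1204 CPM in the 2 libraries. Vc with enzalutamide (1116 and 1090.3 CPM) and Ver with enzalutamide (1091 and 1021 CPM) followed, and their libraries overlapped in this order. Ver control stood at 880.2 and 890.5 CPM and Vc with both compounds at 864 and 866 CPM. Vc with DHT had 794 and 801 CPM and Ver with both compounds 802 and 777 CPM, again with overlap between these neighbours. Without the gene CENPN these sums were 724 and 731 CPM against 785 and 760 CPM, with no overlap. The lowest group was Ver with DHT, with 633 and 687 CPM. Gene by gene, 27 of the 50 genes had their highest group mean in Vc control, 13 in Ver with enzalutamide and 8 in Vc with enzalutamide, while 37 had their lowest mean in Ver with DHT and 9 in Vc with DHT.

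**Figure D1:**
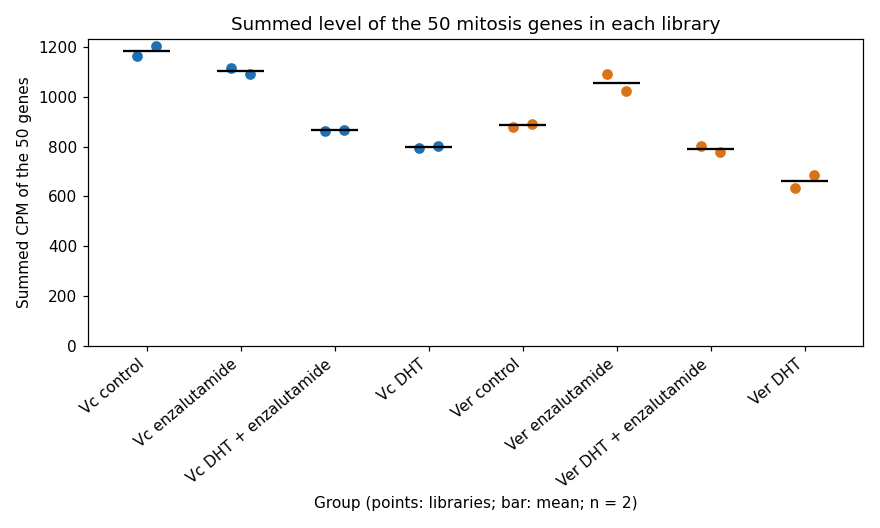
Summed CPM of the 50 genes (vertical axis) in each of the 8 groups, with 1 point per library and a bar at the mean of the 2 libraries; Vc is blue and Ver orange. The means run from 1184 CPM in Vc control to 660.4 CPM in Ver with DHT, and Ver control (885 CPM) lies below Ver with enzalutamide (1056 CPM).

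The first comparison was DHT against control. In Vc, 40 of the 50 genes fell and 1, CENPN, rose, with a median log2 change of -0.68. In Ver, 34 fell and 1 rose, again CENPN, with a median of -0.57. Over all genes tested, 21.8% rose and 22.5% fell in Vc and 21.2% rose and 22.9% fell in Ver, with medians of -0.036 and -0.042. The lists of falling genes shared 31 genes, which are 77.5% of the Vc list and 91.2% of the Ver list, and the 2 comparisons have no library in common. With 40 and 34 of the 50 genes called, lists of this size overlap largely whichever genes they hold. In Vc 34 of the 41 calls and in Ver 22 of the 35 calls held under all alternatives tried, which include leaving out each library in turn. Both DHT libraries lay below both control libraries in 43 of the 50 genes in Vc and 42 in Ver, against 36.3% of all genes in each. They lay above in 1 and 2 genes, against 33.4% and 32.2%.

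**Figure D2:**
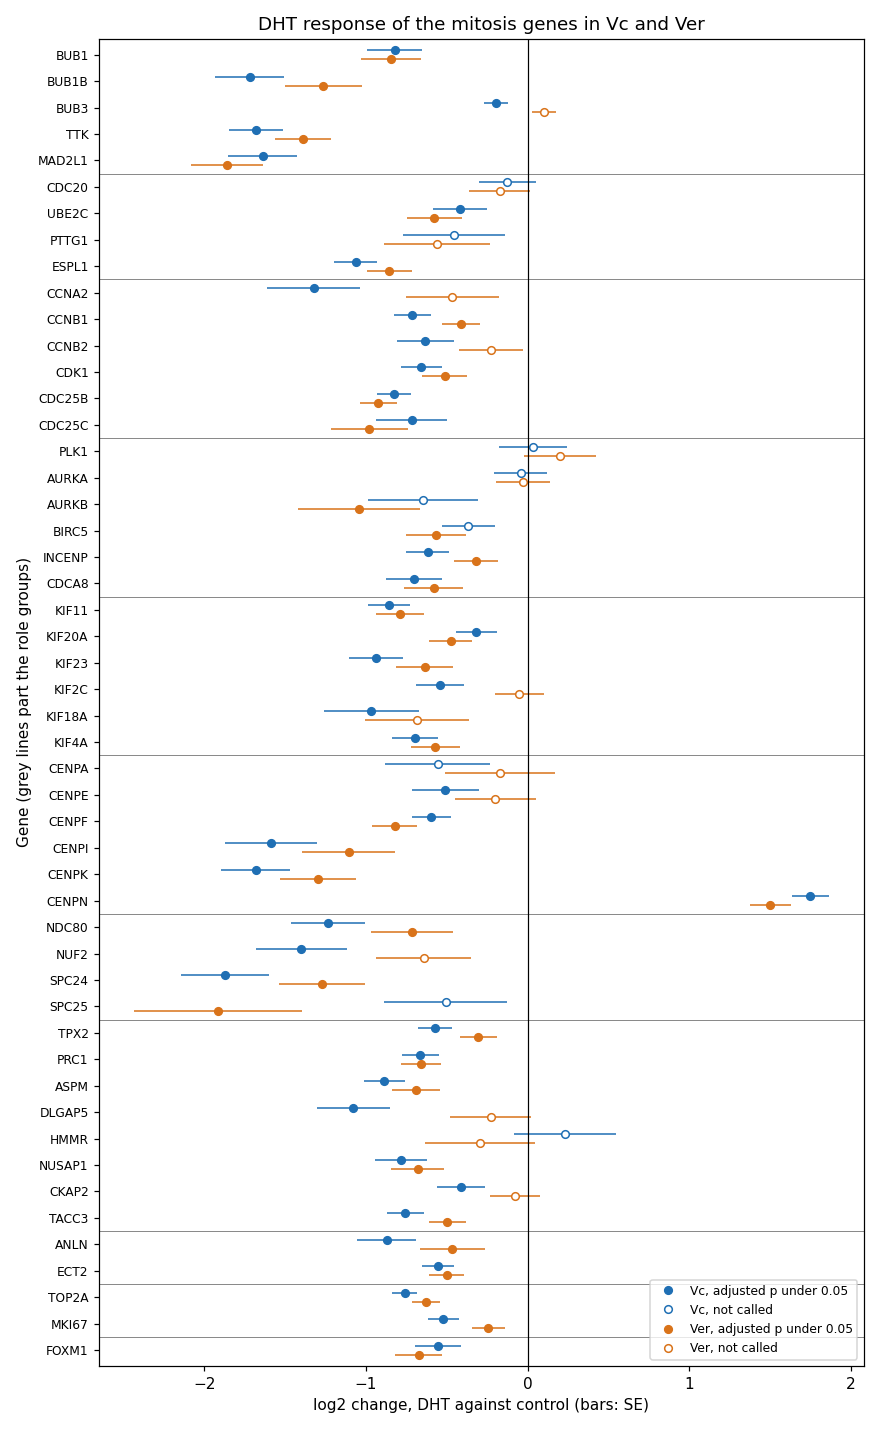
The log2 change with DHT (horizontal axis; bars show the SE) for each of the 50 genes, ordered by role, in Vc (blue) and Ver (orange); filled points have an adjusted p under 0.05 and open points do not. CENPN stands alone on the right at 1.75 in Vc and 1.5 in Ver, while 40 genes in Vc and 34 in Ver have filled points left of 0.

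Promoters of the 50 genes were examined as a description of the list. Genes of this phase of the cell cycle are known for a cell-cycle homology region (TTTGAA or TTCGAA) bound by the MuvB complex, and for CCAAT boxes bound by NF-Y. The 300 bases from 250 before to 50 after the start site were taken from the RefSeq table of assembly GRCh38.p14, using the first listed start, and 43 of the 50 genes matched (BIRC5, UBE2C, FOXM1, TPX2, AURKA, BUB3 and TTK were not in it). Of the 6 genes with the smallest adjusted p for DHT in Vc, the 5 in the table are shown 5′ to 3′, with TTTGAA and CCAAT on either strand in capitals (TTCAAA and ATTGG are their reverse complements). CENPN (RefSeq, chr16:81006964-81007263, plus strand), TOP2A (chr17:40417847-40418146, minus strand), BUB1B (chr15:40160819-40161118, plus strand), ESPL1 (chr12:53268049-53268348, plus strand) and CENPK (chr5:65563119-65563418, minus strand) have a single start in the table.
CENPN: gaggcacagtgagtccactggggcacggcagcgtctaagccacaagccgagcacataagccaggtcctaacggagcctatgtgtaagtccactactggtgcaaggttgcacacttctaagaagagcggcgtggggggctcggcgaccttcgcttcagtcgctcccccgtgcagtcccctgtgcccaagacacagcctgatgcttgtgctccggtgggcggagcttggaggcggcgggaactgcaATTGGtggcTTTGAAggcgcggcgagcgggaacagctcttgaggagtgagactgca
TOP2A: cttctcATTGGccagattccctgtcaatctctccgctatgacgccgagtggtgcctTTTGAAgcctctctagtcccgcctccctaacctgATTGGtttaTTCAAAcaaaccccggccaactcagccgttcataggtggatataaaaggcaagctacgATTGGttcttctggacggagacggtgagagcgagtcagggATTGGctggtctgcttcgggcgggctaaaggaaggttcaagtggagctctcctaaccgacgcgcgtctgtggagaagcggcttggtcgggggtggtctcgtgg
BUB1B: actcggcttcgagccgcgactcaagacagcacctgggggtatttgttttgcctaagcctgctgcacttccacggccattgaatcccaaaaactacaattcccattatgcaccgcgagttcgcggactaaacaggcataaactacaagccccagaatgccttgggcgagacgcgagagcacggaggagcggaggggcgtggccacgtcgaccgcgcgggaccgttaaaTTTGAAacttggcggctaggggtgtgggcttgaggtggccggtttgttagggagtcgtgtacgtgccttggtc
ESPL1: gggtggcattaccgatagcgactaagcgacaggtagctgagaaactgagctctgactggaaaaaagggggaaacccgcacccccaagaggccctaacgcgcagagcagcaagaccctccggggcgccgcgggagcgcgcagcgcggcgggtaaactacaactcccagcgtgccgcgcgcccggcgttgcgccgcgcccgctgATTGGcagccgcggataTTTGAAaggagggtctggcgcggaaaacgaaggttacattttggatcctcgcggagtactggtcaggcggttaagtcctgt
CENPK: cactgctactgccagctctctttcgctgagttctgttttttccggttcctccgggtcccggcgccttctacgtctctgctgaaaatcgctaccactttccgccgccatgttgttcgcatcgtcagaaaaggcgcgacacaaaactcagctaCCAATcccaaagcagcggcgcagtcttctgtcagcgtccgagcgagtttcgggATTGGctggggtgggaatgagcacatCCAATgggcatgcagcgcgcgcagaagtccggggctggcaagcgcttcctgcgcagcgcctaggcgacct

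ESPL1, which fell, has TTTGAA beginning at -31 and CCAAT beginning at -48, counted from the start site as position 1, and BUB1B, which also fell, has TTTGAA at -23 and no CCAAT in the window. TOP2A holds TTTGAA at -194 and -151 and CCAAT at 4 places, and CENPK holds CCAAT at -99, -46 and -20 without TTTGAA. CENPN, the gene that rose, has both motifs as well, TTTGAA at 4 and CCAAT at -6. Counted on both strands, TTTGAA was in 28 of the 43 promoters (65.1%) against 15.4% of the 27305 promoters in the table, and TTCGAA in 2 (4.65% against 1.45%). CCAAT was in 32 (74.4% against 35.7%), and either cell-cycle letters together with CCAAT in 25 (58.1% against 6.58%). AGAACA, the core letters of the androgen response element, was in 4 (9.3% against 14.9%). With DHT in Vc, 23 of the 29 genes with TTTGAA or TTCGAA fell, with a median of -0.70, and 12 of the 14 without fell, with a median of -0.71. These are matches of letters and not measured binding. The genes were chosen as mitotic genes, a class known for TTTGAA and CCAAT, so the shares of these letters describe that choice and not the DHT response.

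The spindle checkpoint had the lowest median among the role groups with DHT, -1.64 in Vc and -1.26 in Ver. Of its 5 genes, 5 fell in Vc and 4 in Ver. The checkpoint kinase TTK (MPS1) was at 24.9 and 24.3 CPM in the 2 Vc control libraries and 6.73 and 8.74 with DHT, and at 19.0 and 17.2 against 5.44 and 8.40 in Ver. No DHT library reached a control library of its line, and the log2 changes were -1.68 (adjusted p = 3.37e-18, SE 0.165) in Vc and -1.39 (adjusted p = 1.62e-12, SE 0.174) in Ver. BUB1B, a subunit of the mitotic checkpoint complex, went from 17.2 and 14.7 to 5.50 and 4.06 CPM in Vc and from 7.47 and 10.4 to 2.76 and 4.71 in Ver. Its log2 changes were -1.72 (adjusted p = 3.46e-13, SE 0.211) and -1.26 (adjusted p = 1.06e-06, SE 0.236). Its readthrough neighbour BUB1B-PAK6 shares 457 exon bases and was under the low-count filter. MAD2L1, the Mad2 protein that holds CDC20, went from 14.4 and 14.6 to 4.27 and 5.08 CPM in Vc and from 14.2 and 14.5 to 4.28 and 3.60 in Ver, with log2 changes of -1.64 (adjusted p = 4.65e-12, SE 0.212) and -1.86 (adjusted p = 1.03e-13, SE 0.223). The kinase BUB1 fell by 0.82 (adjusted p = 1.13e-05, SE 0.169) and by 0.85 (adjusted p = 4.19e-05, SE 0.186) on the log2 scale.

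BUB3, the most abundant checkpoint gene per kilobase and a partner of both BUB proteins, had the smallest change of the 5. It was at 73.9 and 71.0 CPM in Vc control and 66.6 and 59.7 with DHT, a log2 change of -0.20 (adjusted p = 0.0279, SE 0.0767), and that call was lost in 3 of the 4 fits without 1 library (adjusted p = 0.183 without Vc control 1, 0.0583 without Vc control 2 and 0.346 without Vc DHT 2) and with DESeq2 (0.0974). In Ver it was at 73.2 and 80.8 CPM against 81.2 and 83.9 with DHT, with log2 change 0.10 (adjusted p = 0.3, SE 0.0752).

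Of the 4 genes of the anaphase-promoting complex and separase, ESPL1 (separase) and UBE2C fell in both lines. ESPL1 was at 33.0 and 32.4 CPM in Vc control and 15.8 and 15.3 with DHT, and at 24.1 and 25.2 against 13.4 and 13.8 in Ver, and control and DHT libraries did not overlap in either line. Its log2 changes were -1.06 (adjusted p = 1.23e-12, SE 0.131) and -0.86 (adjusted p = 3.1e-08, SE 0.138). UBE2C, the ubiquitin-conjugating enzyme of the complex, went from 13.9 and 13.5 to 10.3 and 10.3 CPM in Vc and from 14.5 and 13.9 to 9.99 and 9.04 in Ver. It was called lower in both (-0.42, adjusted p = 0.0332, and -0.58, adjusted p = 0.0032), but in Vc the call was lost in each of the 4 fits without 1 library (adjusted p = 0.135 and 0.0867 without Vc control 1 or 2, 0.13 and 0.112 without Vc DHT 1 or 2), with no low-count filter (0.0556) and with DESeq2 (0.104). Securin (PTTG1) and the activator CDC20 were not called in either line: the log2 changes of CDC20 were -0.13 (SE 0.175) in Vc and -0.17 (SE 0.190) in Ver. Securin is read thinly here, at 2.41 to 6.56 CPM, and its copies PTTG2 and PTTG3P took 28 and 58 counts in all.

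All 6 genes of the group around CDK1 fell with DHT in Vc, and 4 of 6 in Ver. Cyclin B1 (CCNB1), the most abundant of the 50 genes per kilobase, went from 37.9 and 36.9 to 21.8 and 23.9 CPM in Vc and from 32.5 and 28.5 to 23.1 and 22.7 in Ver, with log2 changes of -0.71 (adjusted p = 5.07e-08, SE 0.117) and -0.41 (adjusted p = 0.00246, SE 0.120); the Ver call was lost without Ver control 1 (adjusted p = 0.0872). CDC25B, a phosphatase that activates CDK1, went from 54.1 and 50.6 to 27.6 and 31.6 CPM and from 39.8 and 38.5 to 18.3 and 23.0, the third smallest adjusted p of the 50 genes in Ver. Its changes were -0.83 (adjusted p = 5.42e-12, SE 0.105) and -0.92 (adjusted p = 1.59e-12, SE 0.114). CDK1 itself fell by 0.66 (adjusted p = 4.41e-06, SE 0.128) in Vc and by 0.51 (adjusted p = 0.00112, SE 0.139) in Ver, where the call was lost without Ver control 1 (adjusted p = 0.0739). Cyclins CCNA2 and CCNB2 fell in Vc (-1.32, adjusted p = 2.54e-05, and -0.63, adjusted p = 0.00144) and were not called in Ver (-0.47 and -0.23); the difference between the lines was not called for either (adjusted p = 0.359 and 0.574). EXOSC9, which shares 254 exon bases with CCNA2 on the opposite strand, fell in Vc too (-0.53, adjusted p = 0.0435), and its part was not tested.

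In the group of the Polo and Aurora kinases and the passenger complex, 2 of 6 genes fell in Vc and 4 of 6 in Ver. PLK1, the Polo kinase of spindle and kinetochore assembly, was at 8.32 and 7.90 CPM in Vc control and 6.82 and 9.96 with DHT, and at 5.04 and 8.23 against 8.20 and 7.11 in Ver, so that its libraries overlapped in both lines. Its log2 changes were 0.033 (adjusted p = 0.922, SE 0.211) and 0.20 (adjusted p = 0.508, SE 0.223). AURKA, the centrosomal Aurora kinase, was at 15.8 and 12.7 CPM in Vc control and 12.6 and 15.2 with DHT, and its log2 changes were -0.043 (adjusted p = 0.863, SE 0.163) and -0.029 (adjusted p = 0.908, SE 0.165). Neither kinase was called in either line. INCENP, the scaffold of the passenger complex and its most abundant gene per kilobase, went from 26.0 and 27.8 to 15.5 and 19.7 CPM in Vc, a change of -0.62 (adjusted p = 3.39e-05, SE 0.134). In Ver it went from 22.9 and 25.2 to 21.2 and 17.3 CPM (-0.32, adjusted p = 0.0449, SE 0.135), a call lost without Ver control 1, Ver control 2 or Ver DHT 2 (adjusted p = 0.0561, 0.276 and 0.427), and also with DESeq2's size factors in edgeR (0.0559), no low-count filter (0.0721), only the groups compared (0.06) or DESeq2 (0.162). CDCA8 (borealin) was called lower in both lines (-0.70 and -0.58; in Ver lost without Ver control 2 or Ver DHT 2, adjusted p = 0.0549 and 0.264). AURKB and survivin (BIRC5) were called lower in Ver (-1.04 and -0.57) and not in Vc (-0.65 and -0.37), and neither difference between the lines was called (adjusted p = 0.83 and 0.82). Neither Ver call was stable: AURKB lost it without Ver control 2 or Ver DHT 1 (adjusted p = 0.287 and 0.167) and BIRC5 without Ver control 1 or Ver DHT 1 (adjusted p = 0.0762 and 0.132), and both with DESeq2 (0.0737 and 0.0564).

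The 6 kinesins all fell in Vc and 4 of them in Ver. KIF11 (Eg5), the motor that parts the spindle poles, went from 34.3 and 39.2 to 20.4 and 20.02 CPM in Vc and from 19.4 and 23.6 to 9.63 and 15.3 in Ver, with no overlap in either line. Its changes were -0.86 (adjusted p = 5.96e-09, SE 0.131) and -0.79 (adjusted p = 1.64e-06, SE 0.148). KIF20A, a cytokinesis motor and the most abundant of the 6 per kilobase, went from 28.7 and 28.4 to 25.8 and 19.7 CPM in Vc and from 25.2 and 25.9 to 16.7 and 20.1 in Ver. Its calls (-0.32 and -0.48) were lost in Vc without Vc control 1, Vc control 2 or Vc DHT 2 (adjusted p = 0.111, 0.0913 and 0.492) or with DESeq2 (0.119) and in Ver without Ver DHT 1 (adjusted p = 0.0806). BRD8 on the opposite strand shares 132 exon bases with KIF20A and fell as well (-0.50 in Vc and -0.59 in Ver), and its part was not tested. The chromokinesin KIF4A fell by 0.70 (adjusted p = 1.12e-05, SE 0.142) and 0.57 (adjusted p = 0.000843, SE 0.152), and its near copy KIF4B took 39 counts in all. KIF2C (MCAK), a microtubule depolymerase, fell in Vc (-0.54, adjusted p = 0.00109) and was not called in Ver (-0.051, adjusted p = 0.823), and the difference was not called (adjusted p = 0.283).

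CENPN, which reads the CENPA nucleosome and helps hold the inner kinetochore to it, was the exception in both lines. It stood at 20.02 and 21.8 CPM in the Vc control libraries and at 70.5 and 70.1 with DHT, and at 14.4 and 15.8 against 42.2 and 43.7 in Ver. The log2 changes were 1.75 (adjusted p = 7.24e-31, SE 0.114) in Vc and 1.5 (adjusted p = 1.55e-22, SE 0.125) in Ver, the smallest adjusted p of the 50 genes in both, and the difference between the lines was not called (-0.25, adjusted p = 0.607). Under all alternatives the change stayed between 1.69 and 1.82 in Vc and between 1.45 and 1.57 in Ver. Without CENPN the summed level with DHT was 724 and 731 CPM in Vc against 1145 and 1182 in control. By GENCODE release 29, genes on the opposite strand overlap 22.8% of the exon bases of CENPN on chromosome 16. The largest overlap is CMC2, which shares 457 bases and rose with DHT from a mean of 24.8 to 37.2 CPM in Vc (log2 change 0.58, adjusted p = 1.19e-05) and from 20.5 to 28.4 CPM in Ver (0.47, adjusted p = 0.0011). Counting was unstranded and in union mode, so reads in shared bases count for no gene, and reads of opposite-strand RNA in the rest of the exons cannot be told from those of CENPN. The part of CMC2 in the CENPN result was not tested.

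The other centromere and kinetochore genes among the 50 fell or were not called. CENPK, a subunit of the inner kinetochore, went from 14.2 and 16.3 to 4.35 and 5.18 CPM in Vc and from 9.12 and 9.39 to 4.28 and 3.23 in Ver, with log2 changes of -1.68 (adjusted p = 2.32e-12, SE 0.214) and -1.30 (adjusted p = 5.31e-07, SE 0.236). Its complex partner CENPI fell by 1.59 (adjusted p = 2.57e-07, SE 0.283) and 1.11 (adjusted p = 0.00049, SE 0.286). CENPF, a large outer kinetochore protein, went from 36.2 and 38.6 to 25.4 and 24.0 CPM and from 21.4 and 26.7 to 11.3 and 15.96, with changes of -0.60 (adjusted p = 1.05e-05, SE 0.121) and -0.82 (adjusted p = 1.01e-07, SE 0.138). The centromeric histone CENPA was not called (-0.56 and -0.17); it lay at 2.03 to 5.06 CPM, and SLC35F6 on its strand, which shares 138 exon bases, rose by 1.14 in Vc (adjusted p = 1.35e-27).

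Within the NDC80 complex, 3 of 4 genes fell in each line. SPC24, the most abundant of them per kilobase, went from 9.09 and 9.94 to 2.71 and 2.44 CPM in Vc and from 8.44 and 7.16 to 3.92 and 2.49 in Ver, with changes of -1.87 (adjusted p = 2.61e-10, SE 0.272) and -1.27 (adjusted p = 1.29e-05, SE 0.266). NDC80 itself fell by 1.24 (adjusted p = 8.08e-07, SE 0.228) in Vc and by 0.72 (adjusted p = 0.0135, SE 0.253) in Ver, a call lost without Ver control 2 or Ver DHT 1 (adjusted p = 0.315 and 0.133) or with DESeq2 (0.0758). NUF2 fell in Vc (-1.40, adjusted p = 6.3e-06) and SPC25 in Ver (-1.91, adjusted p = 0.000481); their values in the other line were -0.64 and -0.51, not called, and neither difference between the lines was called (adjusted p = 0.454 and 0.309).

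Of the 8 spindle assembly and microtubule proteins, 7 fell in Vc and 5 in Ver. TPX2, which targets Aurora A to the spindle, went from 44.3 and 48.2 to 30.4 and 31.7 CPM in Vc and from 34.5 and 31.7 to 25.7 and 27.9 in Ver, with changes of -0.57 (adjusted p = 1.25e-06, SE 0.106) and -0.30 (adjusted p = 0.0193, SE 0.112); the Ver call was lost without Ver control 1 or Ver DHT 1 (adjusted p = 0.187 and 0.167) or with DESeq2 (0.0762). TACC3, a clathrin-binding spindle protein, went from 40.9 and 42.1 to 23.8 and 25.4 CPM and from 32.9 and 32.6 to 22.6 and 23.9, with changes of -0.76 (adjusted p = 2.68e-09, SE 0.113) and -0.50 (adjusted p = 0.000155, SE 0.117). ASPM (-0.89 and -0.69), PRC1, which bundles the central spindle (-0.66 and -0.66), and NUSAP1 (-0.78 and -0.68) fell in both lines, and these calls held under all alternatives. HMMR was not called, with 0.23 (SE 0.316) in Vc and -0.29 (SE 0.340) in Ver.

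TOP2A, which untangles sister chromatids, was at 86.2 and 100.2 CPM in Vc control and 55.4 and 54.4 with DHT, and at 66.2 and 60.8 against 40.5 and 41.6 in Ver. Its log2 changes were -0.76 (adjusted p = 1.41e-16, SE 0.0780) and -0.63 (adjusted p = 5.34e-11, SE 0.0842). The proliferation marker MKI67 (Ki-67) went from 62.3 and 66.6 to 40.6 and 49.5 CPM in Vc, a change of -0.52 (adjusted p = 8.36e-07, SE 0.0946). In Ver it went from 33.1 and 41.6 to 31.2 and 32.0 CPM (-0.24, adjusted p = 0.0486, SE 0.104), a call lost without Ver control 2, Ver DHT 1 or Ver DHT 2 (adjusted p = 0.763, 0.174 and 0.101), and also with DESeq2's size factors in edgeR (0.0642), no low-count filter (0.0711), only the groups compared (0.0821) or DESeq2 (0.2). The cytokinesis factor ECT2 fell from 51.5 and 56.7 to 37.5 and 35.9 CPM in Vc and from 40.7 and 35.5 to 25.6 and 28.2 in Ver (-0.56 and -0.50). FOXM1, the transcription factor that drives many of these genes, went from 23.8 and 27.4 to 19.2 and 15.4 CPM in Vc and from 23.1 and 23.4 to 12.2 and 16.98 in Ver, with changes of -0.55 (adjusted p = 0.000419, SE 0.140) and -0.67 (adjusted p = 3.8e-05, SE 0.146); ITFG2 overlaps 15.9% of its exon bases on the opposite strand and was not called.

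**Figure D3:**
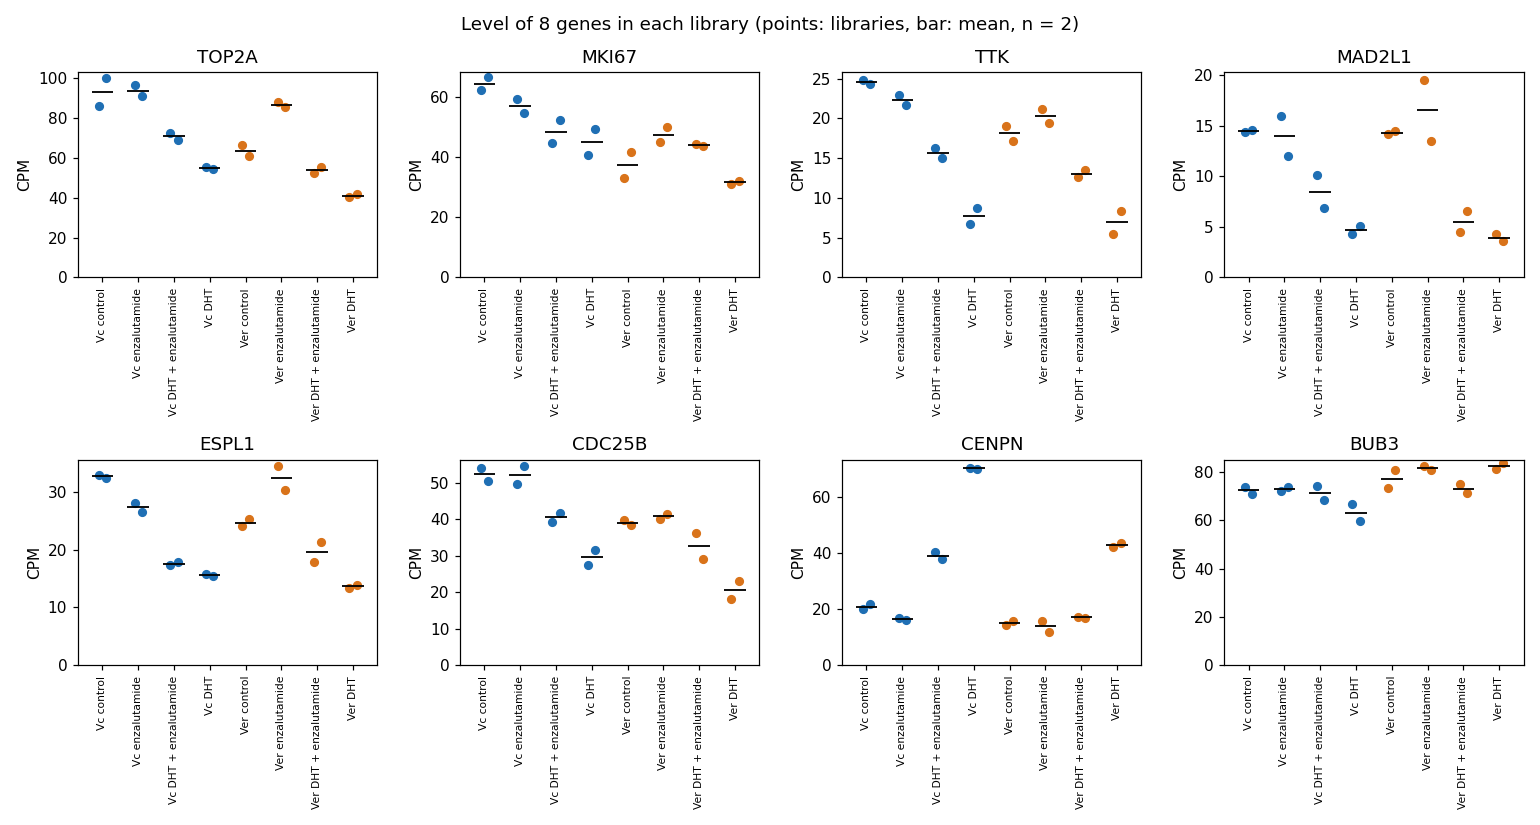
CPM of 8 genes (vertical axis, from 0) in the 8 groups, 1 point per library and a bar at the mean of 2; Vc is blue and Ver orange. TOP2A, TTK, MAD2L1, ESPL1 and CDC25B are lower with DHT than in control in both lines, CENPN is higher, and BUB3 stays between 59.7 and 83.9 CPM throughout.

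No gene of the 50 was called in the difference of the DHT response between the lines (Ver minus Vc) with edgeR, and none with DESeq2. Over all genes, 0.891% were called higher and 1.43% lower. At an unadjusted p under 0.05 in edgeR, 4 of the 50 were higher and 1 lower, a looser rule than that of the shares. The median difference was 0.18, with 35 of 50 genes above 0, which means a smaller fall in Ver for those genes that were lower with DHT in both lines. The microtubule-binding DLGAP5 passed when Ver DHT 1 was left out (log2 difference 1.26, adjusted p = 0.0288; 0.85, adjusted p = 0.218, with it).

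Other genes of division were counted in the same DHT comparisons, where 21.8% of all genes rose and 22.5% fell in Vc. In Ver 21.2% rose and 22.9% fell. Of 27 further kinetochore and centromere genes, 15 fell and 2 rose in Vc and 12 fell and 2 rose in Ver. CENPH (-2.02, adjusted p = 1.26e-15) and CENPU (-1.92, adjusted p = 5.27e-17), inner kinetochore partners of CENPK, and the kinetochore protein ZWINT (-1.97, adjusted p = 1.14e-17) led in Vc. In Ver CENPM (-2.71, adjusted p = 7.54e-16) fell and MIS12 (1.34, adjusted p = 4.41e-15) rose. Of 30 further mitotic kinase, motor and division genes, 18 fell and 1 rose in Vc and 14 fell and 2 rose in Ver. The cytokinesis kinase CIT (-1.47 in Vc and -1.45 in Ver) and WEE1, the kinase that restrains CDK1 (-1.18 and -0.97), were among those that fell, and the chromokinesin KIF22 rose from 74.2 and 81.6 to 207 and 212 CPM in Vc (1.42, adjusted p = 2.73e-45).

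Of 16 regulators of mitotic transcription, 4 rose and 5 fell in Vc and 6 rose and 6 fell in Ver. Over all genes, 21.8% rose and 22.5% fell in Vc, and 21.2% rose and 22.9% fell in Ver. CDKN1A (p21), an inhibitor of cyclin-dependent kinases, went from 30.1 and 33.2 to 187 and 190.4 CPM in Vc and from 40.8 and 38.6 to 222 and 211 in Ver, with changes of 2.58 (adjusted p = 1.45e-69, SE 0.0757) and 2.45 (adjusted p = 1.05e-67, SE 0.0742). MYBL2 (B-Myb), which joins the MuvB complex to activate mitotic genes, went from 40.3 and 48.0 to 16.6 and 18.0 CPM and from 35.3 and 35.7 to 9.27 and 10.98, with changes of -1.35 (adjusted p = 2e-19, SE 0.125) and -1.81 (adjusted p = 3.39e-25, SE 0.141). The S-phase activator E2F1 fell too (-1.61 and -1.96). Among 14 genes of APC/C subunits and associated proteins, 4 rose and 3 fell in Vc and 3 rose and 3 fell in Ver, beside the same shares of all genes. Neither this list nor that of the regulators was tested against these shares. The largest fall there was ANAPC1 (-1.16 and -0.91). Of 20 DNA replication genes, 16 fell and none was called higher in Vc, with a median of -1.36, and 17 fell and 2 rose in Ver, with a median of -1.45. In Vc no replication gene had an unadjusted p under 0.05 on the higher side. The helicase subunit MCM2 went from 59.3 and 68.1 to 11.9 and 13.8 CPM in Vc (-2.31) and from 59.6 and 60.2 to 7.22 and 8.30 in Ver (-2.95).

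Enzalutamide alone was compared with control next. In Vc none of the 50 genes was called by edgeR or by DESeq2, where 0.155% of all genes rose and 0.381% fell. At an unadjusted p under 0.05 in edgeR, 6 of the 50 were lower and none higher, a looser rule than that of the shares. The median log2 change was -0.12, with 36 genes below 0. In 23 genes both enzalutamide libraries lay below both control libraries and in 3 above, against 19.1% and 19.6% of all genes. CENPN had the smallest adjusted p (-0.34, adjusted p = 0.326).

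In Ver the same treatment went with higher values. TOP2A rose, from 66.2 and 60.8 CPM to 87.9 and 85.3, by 0.45 (adjusted p = 4.03e-05, SE 0.0787), and it was the 1 gene called of the 50, where 0.470% of all genes rose and 0.661% fell. The call held under all alternatives, with adjusted p up to 0.0263. The median log2 change was 0.27, and 48 of 50 genes were above 0, or 44 to 48 over the alternatives. These signs come from the same 2 libraries in each group and are not independent of each other. In 33 genes both enzalutamide libraries lay above both control libraries and in none below, against 18.3% and 19.2% of all genes; no gene of the 50 had an unadjusted p under 0.05 on the lower side and DESeq2 called none lower. MKI67 went from 33.1 and 41.6 to 45.1 and 49.9 CPM (0.35, adjusted p = 0.0618) and passed without Ver control 2 (0.52, adjusted p = 0.0141). ESPL1 went from 24.1 and 25.2 to 34.5 and 30.3 CPM (0.39, adjusted p = 0.126) and CCNA2 from 4.65 and 5.01 to 8.40 and 7.81 (0.74, adjusted p = 0.208). The first of the 2 Ver enzalutamide libraries was the one with the fewest counts of all 16, and was the higher of the 2 in summed level.

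The difference of the enzalutamide response between the lines sets a renewed exposure in Ver against a first one in Vc. It was positive for 49 of the 50 genes (43 to 49 over the alternatives), with a median of 0.38. The 50 signs come from the same libraries and are not independent, and the Ver control libraries also enter the comparison of Ver with Vc. No single gene was called by edgeR or DESeq2, and among all genes 0% were called higher and 0.0222% lower by edgeR. At an unadjusted p under 0.05 in edgeR, 19 of the 50 genes were higher and none lower. That count follows a looser rule than the shares of all genes and cannot be compared with them. TOP2A came closest (0.44, adjusted p = 0.184) and was called when only the 4 groups of this contrast were fitted (adjusted p = 0.048).

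Enzalutamide on top of DHT was compared with DHT alone, using the same DHT libraries as above. In Vc 7 genes were higher and 1, CENPN, lower, with a median of 0.16, where 11.5% of all genes rose and 11.0% fell. In Ver 19 genes were higher and 1, again CENPN, lower, with a median of 0.41, where 13.7% rose and 13.2% fell. The higher lists shared 5 genes, 71.4% of the Vc list and 26.3% of the Ver list. CENPN went from 70.5 and 70.1 to 40.3 and 38.0 CPM in Vc (-0.84, adjusted p = 2.44e-11, SE 0.107) and from 42.2 and 43.7 to 17.2 and 16.8 in Ver (-1.34, adjusted p = 1.78e-18, SE 0.126). In Vc this left it above the control libraries, and in Ver close to them. TTK went from 6.73 and 8.74 to 16.3 and 15.1 CPM in Vc (1.03, adjusted p = 1.73e-07, SE 0.171) and from 5.44 and 8.40 to 12.6 and 13.5 in Ver (0.91, adjusted p = 1.24e-05, SE 0.182). CDC25B went from 27.6 and 31.6 to 39.3 and 41.8 CPM (0.46, adjusted p = 0.000351, SE 0.107) and from 18.3 and 23.0 to 36.3 and 29.2 (0.67, adjusted p = 8.25e-07, SE 0.117), and TOP2A from 55.4 and 54.4 to 72.7 and 68.8 and from 40.5 and 41.6 to 52.5 and 55.4 (0.37 and 0.39).

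Some genes were called higher with enzalutamide on top of DHT in 1 line. In Vc MAD2L1 went from 4.27 and 5.08 to 10.1 and 6.87 CPM (0.88, adjusted p = 0.000971, SE 0.223), a call lost without Vc DHT plus enzalutamide 1 (adjusted p = 0.169). CCNA2 went from 3.45 and 1.93 to 4.90 and 6.08 CPM (0.99, adjusted p = 0.00528, SE 0.294), lost without Vc DHT plus enzalutamide 2 or Vc DHT 2 (adjusted p = 0.0915 and 0.2). In Ver CENPF went from 11.3 and 15.96 to 22.9 and 23.9 CPM (0.78, adjusted p = 1.37e-06, SE 0.140), MKI67 from 31.2 and 32.0 to 44.5 and 43.8 (0.48, adjusted p = 7.15e-05, SE 0.104) and KIF20A from 16.7 and 20.1 to 30.2 and 26.1 (0.61, adjusted p = 7.17e-05, SE 0.133). FOXM1 rose in Ver (0.59, adjusted p = 0.000742; 0.124 without Ver DHT 1) and had -0.094 in Vc. The count of calls in Ver fell to 12 without Ver DHT plus enzalutamide 1 and to 11 without Ver DHT 1, and DESeq2 called 13. In Vc it fell to 5 without Vc DHT plus enzalutamide 1. The difference between the lines was called for no gene by edgeR or DESeq2, with 7 higher and 3 lower at an unadjusted p under 0.05 and a median of 0.20; 0.638% and 0.652% of all genes were called higher and lower. FOXM1 was nearest (0.69, adjusted p = 0.0721) and passed without Vc DHT 2 or Ver DHT 2 (adjusted p = 0.042 and 0.0198).

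DHT with enzalutamide was also set against control. In Vc 35 genes were lower and CENPN higher, with a median of -0.52, where 15.3% of all genes rose and 13.2% fell. In Ver 8 genes were lower and none higher, with a median of -0.19, where 12.4% rose and 10.3% fell; DESeq2 called 2 lower and none higher, and at an unadjusted p under 0.05 there was 1 higher and 18 lower. All 8 Ver genes were among the 35 of Vc. ESPL1 went from 33.0 and 32.4 CPM to 17.3 and 17.8 in Vc (-0.90, adjusted p = 1.15e-09, SE 0.128), and the Ver libraries were 24.1 and 25.2 against 17.9 and 21.4 (-0.33, adjusted p = 0.0639). CENPK went from 14.2 and 16.3 to 6.26 and 5.55 CPM in Vc (-1.36, adjusted p = 3.13e-09, SE 0.202) and from 9.12 and 9.39 to 5.34 and 5.58 in Ver (-0.76, adjusted p = 0.00556, SE 0.225; adjusted p = 0.0575 without Ver DHT plus enzalutamide 1). TACC3 went from 40.9 and 42.1 to 25.4 and 24.0 CPM in Vc (-0.75, adjusted p = 5.51e-09, SE 0.112), KIF11 from 34.3 and 39.2 to 21.6 and 19.6 (-0.83, adjusted p = 2.26e-08, SE 0.129) and CDK1 from 34.3 and 36.4 to 19.9 and 22.4 (-0.74, adjusted p = 4.29e-07, SE 0.128). CENPN was at 20.02 and 21.8 against 40.3 and 38.0 CPM (0.90, adjusted p = 3.08e-11, SE 0.117).

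MAD2L1 was the Ver gene whose call against control held under all alternatives: it went from 14.2 and 14.5 CPM to 4.50 and 6.53, a change of -1.38 (adjusted p = 1.64e-08, SE 0.213). KIF11, CDK1, KIF23 and TTK were also called in Ver (-0.44, -0.42, -0.53 and -0.47), as were TOP2A and NUSAP1 (-0.24 and -0.46), and each of these 6 calls was lost with DESeq2 and without at least 1 library. KIF11 and KIF23 lost it without Ver control 2 (adjusted p = 0.314 and 0.431) or Ver DHT plus enzalutamide 1 (0.145 and 0.296), and CDK1 without Ver control 1 (0.305) or Ver DHT plus enzalutamide 2 (0.186). TTK and TOP2A lost it without Ver control 1 (0.174 and 0.309), Ver DHT plus enzalutamide 1 (0.144 and 0.219) or 2 (0.0601 and 0.0574), and NUSAP1 without Ver control 1 (0.0949), Ver control 2 (0.132) or Ver DHT plus enzalutamide 1 (0.278). With no low-count filter TOP2A and NUSAP1 were lost as well (0.06 and 0.0573). Without Ver control 1 the count was 5. MKI67 passed on the higher side without Ver control 2 (0.42, adjusted p = 0.0086). In their libraries KIF11 was at 19.4 and 23.6 against 15.2 and 16.5 CPM, and CDK1 at 26.1 and 21.7 against 18.7 and 16.8. KIF23 was at 11.6 and 15.7 against 8.27 and 10.6 CPM, and TTK at 19.0 and 17.2 against 12.6 and 13.5. The groups did not overlap in these genes, but 28.9% of all genes also lay wholly below control and 27.5% wholly above.

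A test of the difference between the lines in this response (Ver minus Vc) was added after the values had been seen. It called 3 genes higher, MKI67, TPX2 and TACC3, and 1 lower, CENPN, with a median of 0.32, where 0.723% of all genes were called higher and 1.06% lower. MKI67 was at 62.3 and 66.6 CPM in Vc control and 44.5 and 52.4 with both compounds, and in Ver at 33.1 and 41.6 CPM in control and 44.5 and 43.8 with both. It thus lay lower with both compounds in Vc and higher in Ver, and the difference was 0.65 (adjusted p = 0.0013, SE 0.138). TPX2 was at 44.3 and 48.2 against 29.8 and 30.7 CPM in Vc and at 34.5 and 31.7 against 35.3 and 31.3 in Ver, overlapping (0.62, adjusted p = 0.00936, SE 0.153). TACC3 was at 40.9 and 42.1 against 25.4 and 24.0 CPM in Vc and at 32.9 and 32.6 against 29.2 and 29.4 in Ver (0.59, adjusted p = 0.026, SE 0.161). CENPN differed by -0.74 (adjusted p = 0.0091, SE 0.182). DESeq2 also called these 4 genes. None of the 4 calls held when each library was left out in turn. Without Vc DHT plus enzalutamide 1 no gene passed by edgeR (adjusted p = 0.0546 for MKI67, 0.0623 for TPX2, 0.063 for TACC3 and 0.0669 for CENPN). The count was 1 without Ver control 2, and 2 without Vc control 1, Vc control 2, Ver control 1 or Ver DHT plus enzalutamide 1. MKI67 was also lost without Ver control 1 (adjusted p = 0.0839), CENPN without Vc control 1 or Ver control 2 (0.0738 and 0.0749), TPX2 without Vc control 2, Ver control 2 or Ver DHT plus enzalutamide 1 (0.0984, 0.0745 and 0.142), and TACC3 without any 1 of the 8 libraries (up to 0.133).

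**Figure D4:**
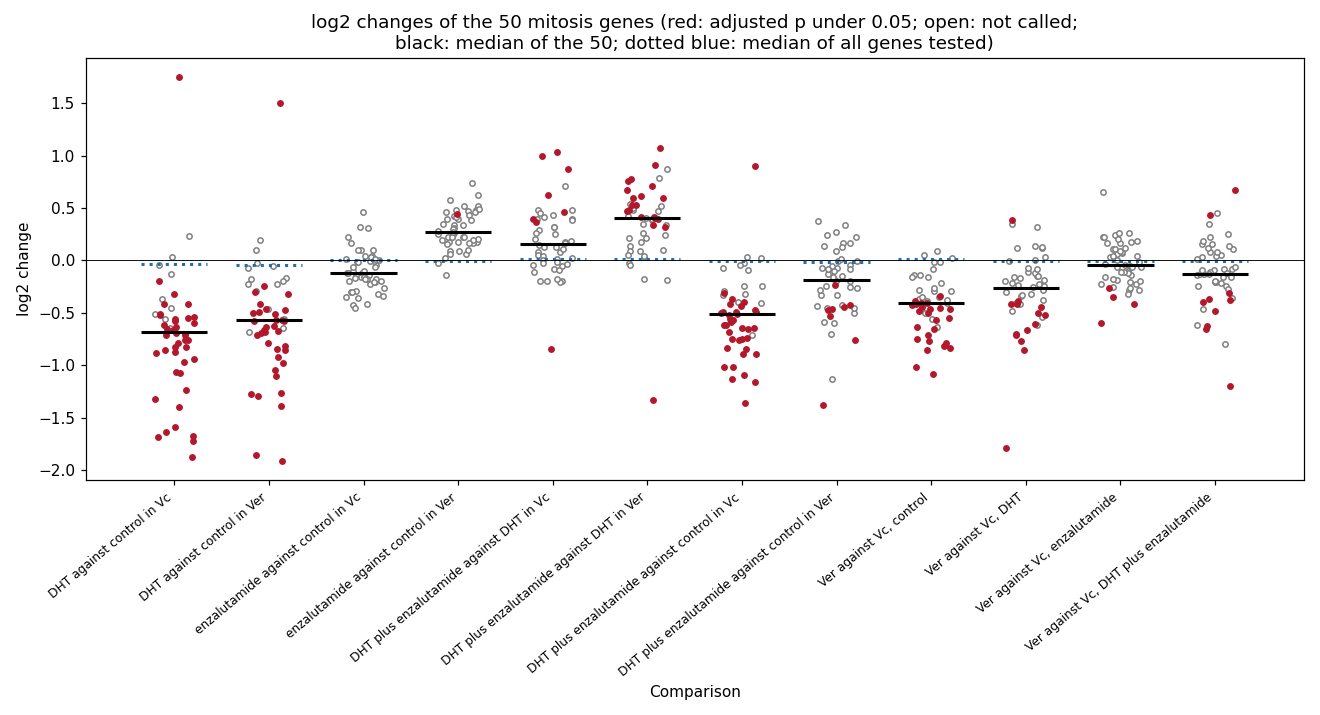
The log2 change (vertical axis) of each of the 50 genes in 12 comparisons; red points have an adjusted p under 0.05, open points do not, the black bar is the median of the 50 genes and the dotted blue bar that of all genes tested. The medians are -0.68 and -0.57 for DHT in Vc and Ver, -0.12 and 0.27 for enzalutamide, and 0.16 and 0.41 for enzalutamide on top of DHT.

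Ver was compared with Vc under each treatment, and lane and line cannot be told apart in any of these values. Without addition, 25 of the 50 genes were lower in Ver and none higher, with a median of -0.41, where 9.13% of all genes were higher and 9.73% lower; DESeq2 called 20 lower and none higher, and no gene had an unadjusted p under 0.05 on the higher side. MKI67 was at 62.3 and 66.6 CPM in Vc and 33.1 and 41.6 in Ver (-0.78, adjusted p = 1.2e-11, SE 0.0968), and TOP2A at 86.2 and 100.2 against 66.2 and 60.8 (-0.55, adjusted p = 1.36e-09, SE 0.0769). ASPM, the spindle pole protein, was at 33.6 and 35.3 against 19.2 and 18.9 CPM (-0.86, adjusted p = 1.95e-08, SE 0.129), KIF11 at 34.3 and 39.2 against 19.4 and 23.6 (-0.77, adjusted p = 6.54e-07, SE 0.130), CENPF at 36.2 and 38.6 against 21.4 and 26.7 (-0.63, adjusted p = 1.3e-05, SE 0.122) and ECT2 at 51.5 and 56.7 against 40.7 and 35.5 (-0.51, adjusted p = 1.99e-05, SE 0.0993). For these 6 genes, picked by adjusted p, both Ver libraries lay below both Vc libraries, and the calls held under all alternatives. Both Ver libraries lay below in 39 of the 50 genes and above in 0, against 27.1% and 27.6% of all genes. With any 1 of the 4 control libraries left out (Vc control 1 or 2, Ver control 1 or 2), 16 of the 50 genes were called lower. These Ver control libraries also enter the enzalutamide comparison in Ver, so the 2 results are not independent. Of the other lists, 7 of 27 kinetochore genes were lower in Ver control than in Vc control. The checkpoint protein MAD1L1 alone was higher, at 19.7 and 19.8 CPM in Vc and 26.9 and 26.9 in Ver (0.45, adjusted p = 0.00715). It is named after its values were seen. Of 30 division genes 13 were lower, KIF22 with the smallest adjusted p (-0.66, adjusted p = 1.76e-13), and of 20 DNA replication genes 4 were lower. In both of these lists edgeR called none higher, and none had an unadjusted p under 0.05 on that side. Of 16 regulators 2 were higher, the NF-Y subunit NFYB (0.50, adjusted p = 0.000604) and CDKN1A (0.33, adjusted p = 0.002), and MYBL2 was lower (-0.31, adjusted p = 0.0402). Of the 14 genes of APC/C subunits and associated proteins, ANAPC2 was higher (0.30, adjusted p = 0.00429) and ANAPC1 lower (-0.51, adjusted p = 7.28e-08).

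With DHT in both lines, 13 genes were lower in Ver and 1 higher, with a median of -0.26, where 7.90% of all genes were higher and 9.37% lower. CENPN was at 70.5 and 70.1 CPM in Vc and 42.2 and 43.7 in Ver (-0.71, adjusted p = 2.31e-08, SE 0.107), and CENPF at 25.4 and 24.0 against 11.3 and 15.96 (-0.86, adjusted p = 1.35e-07, SE 0.138). BUB3 was the gene higher in Ver, at 66.6 and 59.7 CPM in Vc and 81.2 and 83.9 in Ver (0.38, adjusted p = 3.12e-05, SE 0.0766), a call that held under all alternatives. MKI67 (-0.51) and TOP2A (-0.42) were lower in Ver in this state too, as was KIF11 (-0.70, adjusted p = 9.21e-05; 0.124 without Ver DHT 1). Without Ver DHT 1 the count of calls fell from 14 to 9.

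With enzalutamide in both lines the median difference was nearest to 0. Here 4 genes were lower in Ver and none higher, with a median of -0.045, where 7.88% of all genes were higher and 8.69% lower. DESeq2 called none. At an unadjusted p under 0.05 in edgeR, 2 of the 50 were higher and 6 lower, a looser rule than that of the shares. The sign of the median depended on the libraries used, and over the alternatives it ran from -0.13 to 0.031. CDC25B was at 49.8 and 54.6 CPM in Vc and 40.1 and 41.6 in Ver (-0.35, adjusted p = 0.00748, SE 0.103), ASPM at 28.7 and 35.6 against 26.1 and 22.1 (-0.42, adjusted p = 0.0115, SE 0.128), BUB1B at 19.6 and 14.6 against 11.7 and 10.9 (-0.60, adjusted p = 0.0125, SE 0.185) and MKI67 at 59.4 and 54.8 against 45.1 and 49.9 (-0.26, adjusted p = 0.0456, SE 0.0963). Each call was lost in at least 2 of the 4 fits without 1 library, and 1 or 2 calls remained in each. The highest adjusted p in these fits was 0.159 for CDC25B, 0.387 for ASPM, 0.389 for BUB1B and 0.369 for MKI67. The fits that lost CDC25B left out Vc enzalutamide 2 or Ver enzalutamide 1, and those that lost ASPM left out Vc enzalutamide 2 or Ver enzalutamide 2. BUB1B was lost without Vc enzalutamide 1 or Ver enzalutamide 2, and MKI67 in all 4 fits, with DESeq2's size factors in edgeR (adjusted p = 0.0663) and with no low-count filter (0.0573).

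With both compounds in both lines, 8 genes were lower in Ver and 2 higher, with a median of -0.13, where 9.28% of all genes were higher and 11.0% lower. CENPN was at 40.3 and 38.0 CPM in Vc and 17.2 and 16.8 in Ver (-1.20, adjusted p = 1.87e-15, SE 0.126), the largest log2 difference of the 50 genes under this treatment. TOP2A was at 72.7 and 68.8 against 52.5 and 55.4 CPM (-0.39, adjusted p = 5.09e-05, SE 0.0813) and ASPM at 24.5 and 24.7 against 16.9 and 14.4 (-0.65, adjusted p = 8.54e-05, SE 0.139). These 3 calls held under all alternatives. FOXM1, higher in Ver at 20.9 and 23.1 CPM against 16.9 and 15.8 in Vc (0.43, adjusted p = 0.0215, SE 0.145), lost its call without Vc DHT plus enzalutamide 1, Vc DHT plus enzalutamide 2 or Ver DHT plus enzalutamide 2 (adjusted p = 0.06, 0.142 and 0.177) or with DESeq2 (0.108). SPC24, also higher, was at 8.38 and 5.16 CPM against 3.93 and 4.58 (0.67, adjusted p = 0.0469, SE 0.256), and its call was lost without Vc DHT plus enzalutamide 1, Vc DHT plus enzalutamide 2 or Ver DHT plus enzalutamide 1 (adjusted p = 0.266, 0.0792 and 0.677). It was also lost with the replicate block (adjusted p = 0.0501), no low-count filter (0.0741), only the groups compared (0.0536) and DESeq2 (0.147). MAD2L1 was at 10.1 and 6.87 CPM in Vc and 4.50 and 6.53 in Ver (-0.63, adjusted p = 0.0269, SE 0.221), a call lost without Vc DHT plus enzalutamide 1 or Ver DHT plus enzalutamide 1 (adjusted p = 0.543 and 0.41) or with DESeq2 (0.147). CENPF was at 30.7 and 29.5 CPM in Vc and 22.9 and 23.9 in Ver (-0.36, adjusted p = 0.0262, SE 0.127), a call lost in each of the 4 fits without 1 library (adjusted p = 0.162 and 0.065 without Vc DHT plus enzalutamide 1 or 2, 0.162 and 0.077 without Ver DHT plus enzalutamide 1 or 2) and with DESeq2 (0.126). The count of 10 calls fell to 3 and 4 without Vc DHT plus enzalutamide 1 or 2 and to 6 without Ver DHT plus enzalutamide 2.

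**Figure D5:**
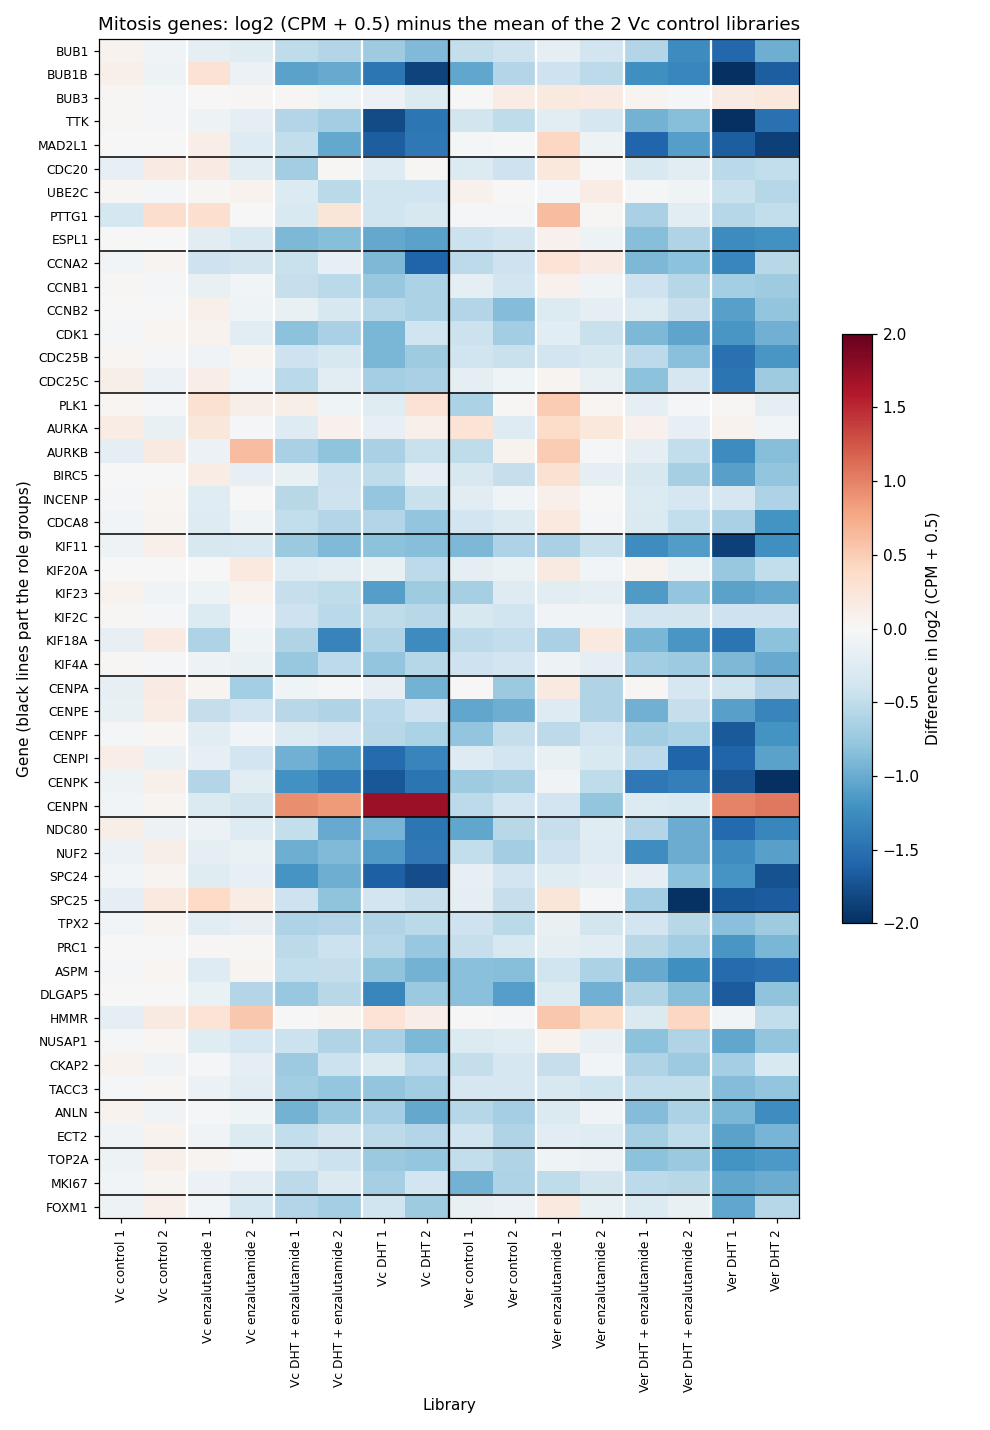
Difference of log2 (CPM + 0.5) from the mean of the 2 Vc control libraries, for the 50 genes (rows, parted by role) in the 16 libraries (columns, Vc left of the black line and Ver right); red is higher and blue lower, and the colours end at -2 and 2. The DHT columns are blue in most rows, CENPN is red in the 4 DHT libraries and in Vc with both compounds, and PLK1, AURKA, HMMR and BUB3 stay pale.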

How the data were processed

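PolyA RNA-seq counts of 16 libraries (8 groups of 2) were analysed. Per the submitters' processing notes, the authors used FastQC 0.11.7, Trimmomatic 0.36-5, HISAT2, SAMtools and HTSeq 0.11.1 with GRCh38, and the annotation release is not given in the sources used here. The deposited counts are whole reads per gene, in union mode and without strand per the file names, and their 5 summary lines were set aside. The deposited normalized table, whose values are a signal scaled by the authors, was used for gene names alone. Genes were filtered with filterByExpr by group, scaled by TMM and fitted in edgeR 4.0.16 (R 4.3.3, limma 3.58.1) with 1 mean per group over all 16 libraries (8 residual degrees of freedom, biological coefficient of variation 6.01%), using the robust quasi-likelihood F test with Benjamini-Hochberg adjustment over 22553 genes at 0.05. The scripts were tested on simulated data. Libraries held 8155244 to 13273523 gene counts. CPM are read counts scaled to a common TMM-adjusted library total, and the pseudocount of 0.5 serves the heat map alone.

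Each SE was derived from the variance that edgeR fitted; counting error replaced it where larger. Positions, exon lengths and overlaps come from GENCODE release 29 and promoters from the RefSeq table of GRCh38.p14. Any of the 50 genes could be named. Library values were given for the most abundant gene per kilobase in each role, for the 6 genes with the smallest adjusted p in each comparison with calls, and for genes called against the majority; from the other lists the 3 with the smallest adjusted p could be named, and further named genes were chosen after their values were seen. The genes and lists were chosen with earlier results of these data known. Alternatives were DESeq2 1.42.0, its size factors in edgeR, no low-count filter, only the groups compared, a replicate block and leaving out each library.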

Additional observations from a re-analysis of the deposited data

Results flagged for a closer look

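The response to DHT with enzalutamide differed between the lines (Ver minus Vc, edgeR interaction term, added after the values had been seen) for 4 of the 50 genes: the log2 difference was 0.65 (adjusted p = 0.0013, SE 0.138) for MKI67, 0.62 (adjusted p = 0.00936, SE 0.153) for TPX2, 0.59 (adjusted p = 0.026, SE 0.161) for TACC3 and -0.74 (adjusted p = 0.0091, SE 0.182) for CENPN. Each call was lost when at least 1 library was left out, TACC3 in all 8 such fits, TPX2 in 4, CENPN in 3 and MKI67 in 2. All 4 share the control libraries with the other comparisons of their line.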

How the results depend on the processing

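No call in the 50 genes changed direction under the alternatives tried; the median of Ver against Vc with enzalutamide, with no test, ran from -0.13 to 0.031. In all, 112 of 206 calls in the 50 genes held under every one. Of 160 medians recomputed, 133 moved by less than the spread between replicates. DESeq2 called 13 genes for DHT plus enzalutamide against DHT in Ver (20 with edgeR), 2 for DHT plus enzalutamide against control in Ver (8), 0 for Ver against Vc with enzalutamide (4) and 3 with both compounds (10). With only the groups compared, the difference of the enzalutamide response had 1 call. Leaving out 1 library at a time, the calls ran from 36 to 40 (DHT in Vc), 28 to 34 (DHT in Ver), 0 to 1 (DHT difference), 1 to 2 (enzalutamide in Ver), 5 to 8 and 11 to 20 (both compounds against DHT in Vc and Ver), 0 to 1 (difference of enzalutamide on DHT), 27 to 32 and 5 to 6 (both against control in Vc and Ver) and 0 to 4 (its difference). For Ver against Vc they were 16 in each such fit (control), 9 to 17 (DHT), 1 to 2 (enzalutamide) and 3 to 7 (both). The lone library left in a group is then assumed to vary like the others. The cause of these shifts was not tested.

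With the replicate block the calls were 41 and 35 for DHT in Vc and Ver, 8 and 20 for enzalutamide on DHT, 35 and 9 for both compounds against control, and 26, 14, 5 and 9 for Ver against Vc with control, DHT, enzalutamide and both. Deviations of same-numbered libraries correlated at -0.122 to 0.102 over 28 pairs of groups, with a median of 0.019 and 1 pair over 0.1. No strong shared deviation was seen, and the labels do not say whether a number marks a shared culture or day. Depth limits the thin genes most: SPC25 had 4 to 52 counts in a library.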
